A study of Mus musculus with 4 samples.

Results

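The 9 genes described here encode the R-spondins and the receptors that read them: the 4 secreted R-spondins Rspo1 to Rspo4, the 3 leucine-rich repeat receptors Lgr4, Lgr5 and Lgr6, and the 2 membrane E3 ubiquitin ligases Znrf3 and Rnf43. They were taken as every probe set whose platform annotation names one of these genes and no other. All 9 were found, each with 1 probe set, among 19938 genes in all. Expression was measured on 4 arrays of dermal papilla cells from mouse skin at postnatal day 5, 2 from Sox2 heterozygous animals (Het) and 2 from Sox2 conditional knockout animals (cKO). The dermal papilla is the mesenchymal cell cluster that the hair bulb encloses, and Sox2 encodes a transcription factor of the SOX family. In both groups the cells were sorted as positive for a Sox2-driven green fluorescent protein and for integrin alpha 9, so both carry the reporter. No source used here gives the Cre driver of the knockout, the sex of the animals, or whether a replicate was one animal or a pool. Sex-linked genes separated the 2 groups, as given below, so sex and genotype cannot be told apart here. Each limma p-value sets a difference against the spread between these samples, moderated by that of all genes. The number of animals behind these samples is not known.

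R-spondins amplify WNT signals. ZNRF3 and RNF43 tag Frizzled receptors on the cell surface for removal, and an R-spondin that bridges one of these ligases to an LGR receptor takes the ligase off the surface, so that more Frizzled remains to receive WNT. In the hair follicle, papilla cells are a source of R-spondins, while LGR5 and LGR6 are best known as markers of epithelial stem cells of the follicle.

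Every value below is a log2 value set against the median of the 4 arrays, because the deposited table had been centred in this way. Values of a group are given with replicate 1 first. The table holds differences between arrays and no level, so neither the order of the 9 genes by abundance nor the presence of papilla markers can be read from it. The centring also makes the inner 2 of the 4 values of a probe set mirror each other around 0. A difference is always cKO minus Het. Sox2 stood at 0.96 and 0.87 in Het, against -0.87 and -0.94 in cKO. Whether its probe set falls in the deleted part was not examined, so how far it checks the labels is not known. The SD of the differences between 2 arrays over all probe sets was 0.19 within Het, 0.21 within cKO, and 0.18 to 0.26 for pairs that cross the groups. An array holds RNA of many cells, and fewer cells of a type cannot be told apart from less RNA per cell.

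Of the 9 genes, 3 R-spondin genes and both ligase genes lay lower in both cKO arrays than in either Het array, and the receptor gene Lgr4 lay higher. The largest differences were those of Rspo3, at 1.58-fold lower, and Lgr4, at 1.36-fold higher. For Rspo4, Lgr5 and Lgr6 the groups overlapped. None of the 9 passed limma's test adjusted over all genes, and 0 of the 19938 genes did (0%). At an unadjusted p under 0.05 there were 1053 genes (5.28%), among them Rspo2, Rspo3 and Lgr4. Which of the 9 genes fell under this limit depended on the fit: Rspo2 did not with quantile normalisation, Znrf3 took its place with the replicate number as a block, and with the unmoderated statistic Rnf43 was the only one. Groups that do not overlap were seen in 6 of the 9 genes, against 33.5% of all genes. In 5 of the 9 cKO was the lower group, against 15.6% of all genes, and in 1 it was the higher, against 17.8%. The median difference was -0.06 over the 9 genes and 0.0034 over all genes. With 2 arrays against 2, an exact permutation test of a single gene cannot go below a two-sided p of 0.333.

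**Figure D1:**
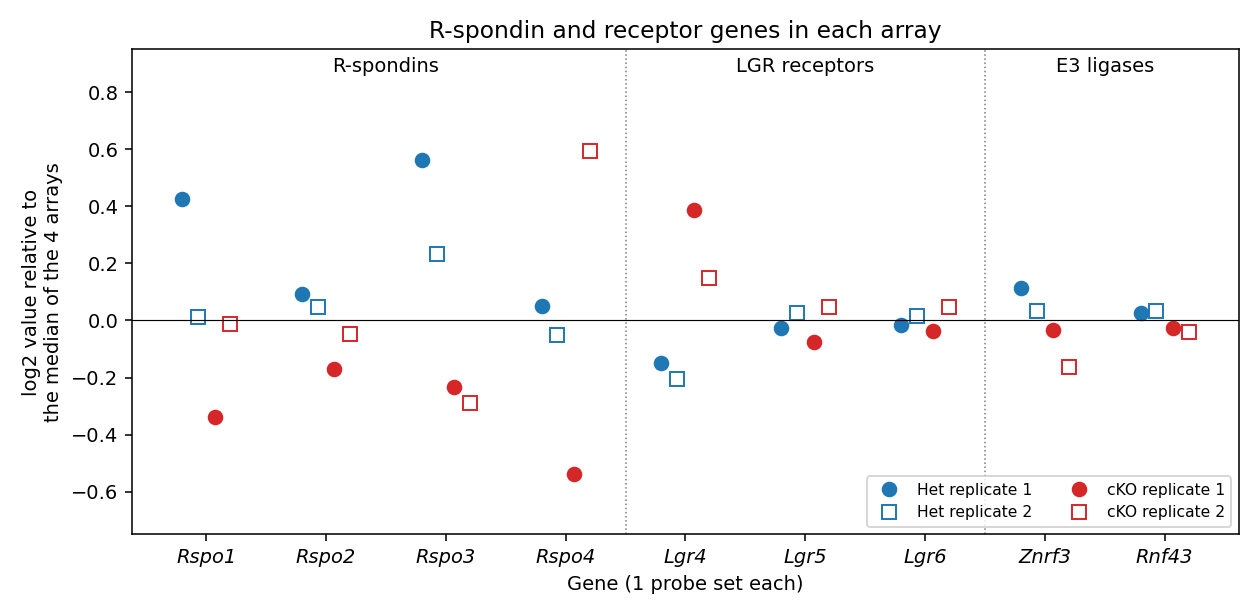
Values of the 9 genes in each array, as log2 values set against the median of the 4 arrays, with Het in blue, cKO in red, replicate 1 as filled circles and replicate 2 as open squares. Rspo3 is higher in both Het arrays and Lgr4 in both cKO arrays, while the 2 cKO arrays lie at opposite ends for Rspo4.

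Rspo3 encodes an R-spondin that also acts in blood vessel development. It stood at 0.56 and 0.23 in Het, against -0.23 and -0.29 in cKO. Both Het arrays were high and both cKO arrays low, and the gap between the nearest arrays of the groups, 0.47, was wider than the gap of 0.33 inside Het and of 0.05 inside cKO. Array by array, the 4 differences ran from -0.85 for cKO replicate 2 against Het replicate 1 to -0.47 for cKO replicate 1 against Het replicate 2. The difference of the means was -0.66 ± 0.13 (SE, n = 2 arrays per group), with a 95% interval from -1.04 to -0.28, and did not pass over all genes (limma, adjusted p = 0.897). In absolute size it stood at the 99.5th percentile of all genes. It was -0.50 without Het replicate 1 and -0.82 without Het replicate 2.

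Rspo1 is known for its part in ovary development. Its values were 0.43 and 0.013 in Het, against -0.34 and -0.013 in cKO. The groups were thus separated by only 0.03, while the Het arrays were 0.41 apart and the cKO arrays 0.33 apart. The difference of -0.40 ± 0.20 (SE, n = 2 arrays per group; limma, adjusted p = 0.961) came mainly from replicate 1 of each group: cKO replicate 1 minus Het replicate 1 was -0.77, and cKO replicate 2 minus Het replicate 2 was -0.03. Without Het replicate 1 the difference was -0.19, and without cKO replicate 1 it was -0.23. Without Het replicate 2 it was -0.60.

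Rspo2, which has been tied to coat type in dogs, stood at 0.09 and 0.05 in Het, against -0.17 and -0.05 in cKO. The groups did not overlap, but the gap between them, 0.10, was narrower than the gap of 0.12 between the cKO arrays. Its difference was -0.18 ± 0.06 (SE, n = 2 arrays per group; limma, adjusted p = 0.937), a 1.13-fold lower value, and -0.12 without cKO replicate 1.

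Rspo4, the R-spondin gene required for nail formation, was unlike the other R-spondin genes. It was near the middle in both Het arrays, at 0.05 and -0.05, and at the 2 extremes in the cKO arrays, at -0.54 in replicate 1 and 0.59 in replicate 2. The 2 cKO arrays were therefore 1.13 apart, a gap at the 99.8th percentile of all genes. The difference between the groups, 0.03 ± 0.43 (SE, n = 2 arrays per group; limma, adjusted p = 1), had a 95% interval from -1.23 to 1.29. These arrays give no direction for Rspo4.

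Among the receptor genes, Lgr4 had the largest difference. LGR4 is the most widely expressed of the 3 receptors. Lgr4 stood at -0.15 and -0.20 in Het, against 0.39 and 0.15 in cKO. Both cKO arrays were higher, and the gap of 0.30 between the groups exceeded the gaps of 0.06 inside Het and 0.24 inside cKO. The 4 differences, array by array, ran from 0.30 to 0.59. The difference of the means was 0.44 ± 0.10 (SE, n = 2 arrays per group), with a 95% interval from 0.15 to 0.73 and at the 98.3rd percentile of all genes in absolute size, and did not pass (limma, adjusted p = 0.934). It was 0.32 without cKO replicate 1 and 0.56 without cKO replicate 2.

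Lgr5, the stem cell marker of the lower outer root sheath, had values of -0.026 and 0.026 in Het, against -0.076 and 0.048 in cKO. The 2 Het arrays lay between the 2 cKO arrays. Lgr6, a marker of stem cells above the bulge, was ordered in the same way, at -0.014 and 0.014 in Het and -0.036 and 0.048 in cKO. The differences were -0.01 ± 0.06 for Lgr5, with a 95% interval from -0.19 to 0.17, and 0.01 ± 0.05 for Lgr6, with an interval from -0.13 to 0.15 (SE, n = 2 arrays per group; limma, adjusted p = 1 for both). Their range over the 4 arrays was 0.12 and 0.08, at the 44.7th and 28.8th percentiles of all genes. Without a level it cannot be said whether either gene was detected. Keratinocyte markers, which would come from cells of the epithelium, had medians of -0.05 and 0.18 in Het, against -0.03 and -0.02 in cKO, and their part in the values of Lgr5 and Lgr6 was not tested.

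The bases before the start of the receptor gene with the largest difference, Lgr4, and of one with almost none, Lgr6, are printed to compare letters bound by SOX factors and other regulators. They are RefSeq's, on build GRCm38.p6, and cover the 250 bases before each annotated start, 5′ to 3′, at chr2:109917397-109917646 on the + strand for Lgr4 and chr1:135105277-135105526 on the - strand for Lgr6. Capitals mark 2 matches to CCAAT and 1 to the octamer ATTTGCAT in Lgr4, and the match to the SOX core AACAAT in Lgr6.
Lgr4: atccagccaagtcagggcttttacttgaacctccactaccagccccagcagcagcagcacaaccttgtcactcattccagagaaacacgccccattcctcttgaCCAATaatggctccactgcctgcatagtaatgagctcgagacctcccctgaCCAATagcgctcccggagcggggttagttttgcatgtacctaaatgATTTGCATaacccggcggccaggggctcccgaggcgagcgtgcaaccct
Lgr6: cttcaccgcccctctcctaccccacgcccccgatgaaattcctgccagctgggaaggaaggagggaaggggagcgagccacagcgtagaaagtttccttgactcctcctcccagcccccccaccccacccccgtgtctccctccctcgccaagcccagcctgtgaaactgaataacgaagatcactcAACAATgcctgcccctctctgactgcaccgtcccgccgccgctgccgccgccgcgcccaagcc
Of the 9 genes, 5 had an entry in the promoter table: Lgr4, Lgr6, Rspo1, Rspo4 and Rnf43, the last with more than one start, giving 6 windows. Each was searched on both strands for the SOX core AACAAT and for CTTTGA and CTTTGT, letters bound by TCF factors; the last of these can also be bound by SOX factors. The single match was AACAAT in Lgr6, beginning 63 bases before the start, and the other 5 windows held none of the 3 motifs. Over all 32851 windows of this length, 9.42% held AACAAT, 13.8% CTTTGA and 16.5% CTTTGT. The Lgr4 window has CCAAT, letters known from binding of the factor NF-Y, beginning 146 and 95 bases before the start, and ATTTGCAT, letters bound by POU factors, beginning 49 bases before it. CCAAT was found in 33.8% of all windows and ATTTGCAT in 1.6%, and in none of the other 5 windows described here. These last 2 motifs were chosen after the Lgr4 sequence had been read. A match is a description of letters and shows no binding.

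Of the 2 ligase genes, Znrf3 stood at 0.11 and 0.03 in Het, against -0.03 and -0.16 in cKO. The groups did not overlap, but the gap of 0.07 between them was narrower than that between the Het arrays, 0.08, or the cKO arrays, 0.13. The difference was -0.17 ± 0.07 (SE, n = 2 arrays per group; limma, adjusted p = 0.943), and it was -0.11 without cKO replicate 2.

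Rnf43 varied little, with 0.025 and 0.033 in Het, against -0.025 and -0.041 in cKO. Its groups were 0.05 apart, wider than the gaps of 0.0087 within Het and 0.016 within cKO, but the difference, -0.06 ± 0.04 (SE, n = 2 arrays per group; limma, adjusted p = 0.978), was only 1.04-fold. Its range over the 4 arrays stood at the 24.5th percentile of all genes. Both ligase genes are themselves known targets of beta-catenin, the nuclear effector of WNT.

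In 3 of the 9 genes, Rspo3, Lgr4 and Rnf43, the gap between the groups exceeded both gaps within a group, against 9.05% of all genes.

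**Figure D2:**
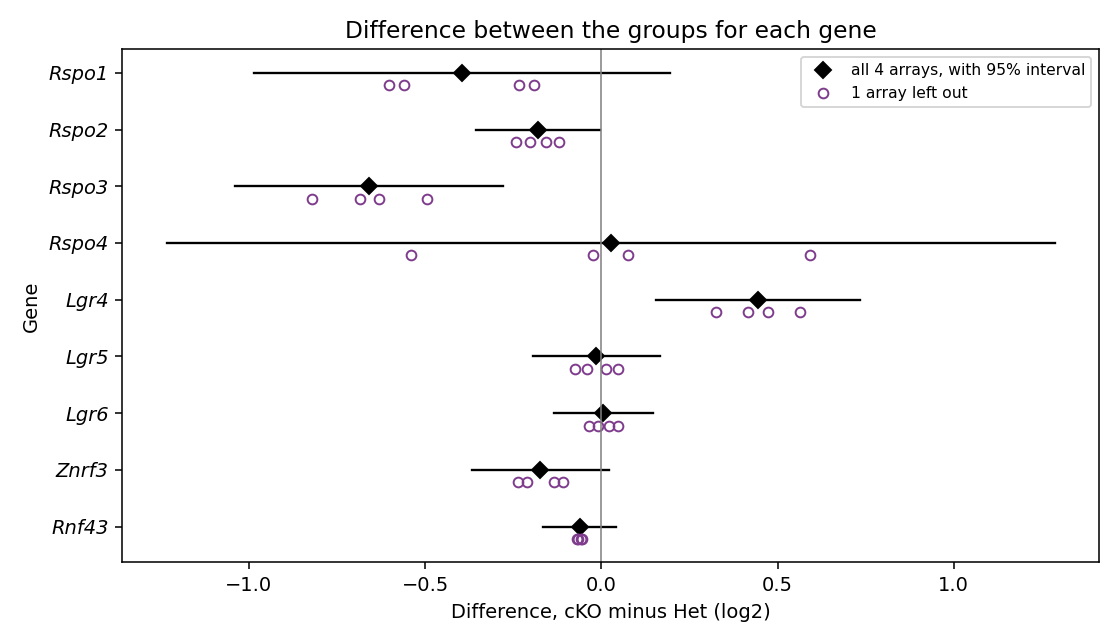
Difference between the groups for each gene, cKO minus Het on the log2 scale, with black diamonds and lines for the value and 95% interval from all 4 arrays and open circles for the values with 1 array left out. Rspo3 stays between -0.82 and -0.50 and Lgr4 between 0.32 and 0.56, while Rspo4 runs from -0.54 to 0.59.

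The other genes of the pathway were read in 6 lists, and in none of them did a gene pass limma's test over all genes. The WNT ligands and the 2 genes of their secretion had 12 of 21 genes higher and a median difference of 0.02. Against 33.5% of all genes, groups did not overlap in 5 of the 21. The largest of these was Wnt10a, a ligand gene of the hair follicle, at 0.14 ± 0.06. Wls, which encodes the carrier that brings WNTs to the cell surface, was at -0.07 ± 0.09 with overlapping groups (SE, n = 2 arrays per group).

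The Frizzled receptors and their co-receptors, on which the R-spondin pathway acts, were higher in 11 of 15 cases, with a median of 0.05. Over all genes, 47.7% were lower. Groups did not overlap in 8 of the 15, 5 of them higher and 3 lower, against 17.8% and 15.6% of all genes. Of these 5 higher genes, Ror2 had the largest difference, at 0.11 ± 0.05 (SE, n = 2 arrays per group). Of the 3 lower genes, Fzd7 had the largest difference. Fzd7 was 0.13 and 0.07 in Het, against -0.29 and -0.07 in cKO. Its difference was -0.28 ± 0.09 (SE, n = 2 arrays per group) and did not pass (limma, adjusted p = 0.937). The co-receptor gene Lrp6 was at 0.03 ± 0.07 and overlapped.

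Syndecans and glypicans are cell surface proteoglycans whose heparan sulphate chains can bind R-spondins, and 7 of the 10 genes of this list were lower, with a median of -0.02. Groups did not overlap in 2, against 33.5% of all genes. Sdc2 was 0.39 and 0.0020 in Het, against -0.14 and -0.0020 in cKO, so that, as in Rspo1, its difference of -0.27 ± 0.16 lay mainly in replicate 1 of each group. Sdc4, the syndecan gene best known as a partner of Rspo3, was at 0.01 ± 0.05 with overlapping groups (SE, n = 2 arrays per group).

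Secreted WNT inhibitors had 9 of 17 genes lower and a median of -0.02. Their differences had the widest spread of these lists, from -2.15 for Sostdc1 to 0.75 for Wif1. Groups did not overlap in 7, against 33.5% of all genes. The intracellular transducers had 6 of 12 genes lower and a median of -0.0017. Against 33.5% of all genes, groups did not overlap in 3 of the 12. These included the kinase gene Gsk3a, at -0.38 ± 0.07, and Dvl3, whose product relays the signal from Frizzled, at -0.27 ± 0.08 (SE, n = 2 arrays per group).

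Among 13 measured beta-catenin targets and TCF factors, 7 were lower and 6 higher, with a median of -0.06, and groups did not overlap in 7. Cd44, a hyaluronan receptor gene, was at -0.56 ± 0.13. Nkd2, a feedback inhibitor gene, was at -0.50 ± 0.31, with 0.83 and 0.03 in Het, against -0.03 and -0.11 in cKO. Its difference thus lay mainly in Het replicate 1, as the Het arrays were 0.80 apart. The feedback target Axin2 was 0.04 and -0.08 in Het, against -0.04 and 0.26 in cKO, with overlapping groups, and its difference was 0.13 ± 0.13. Lef1, which encodes a nuclear partner of beta-catenin, was at 0.51 ± 0.23 and had its highest value, 0.70, in cKO replicate 2, as did Axin2 (SE, n = 2 arrays per group). Over all genes, groups did not overlap in 33.5%.

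**Figure D3:**
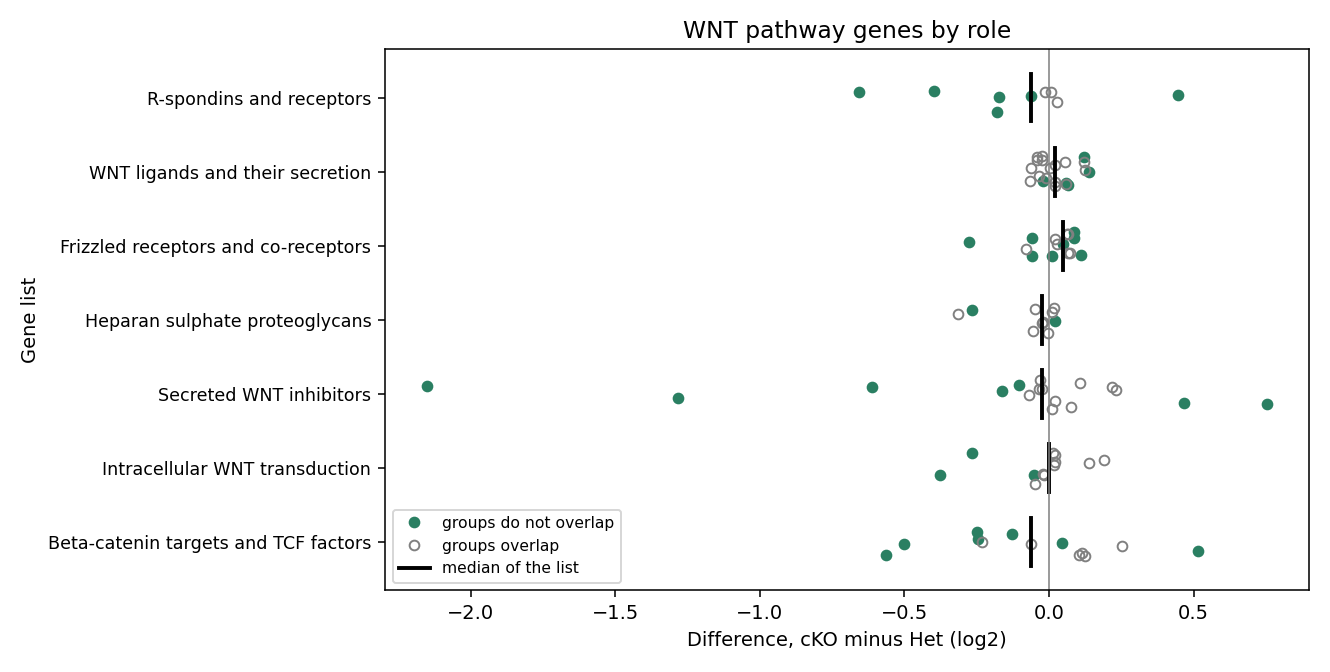
Difference between the groups, cKO minus Het on the log2 scale, for each measured gene of the 9 and of the 6 other WNT lists; filled points are genes whose groups do not overlap, open points those that overlap, and black bars the medians. The medians lie between -0.06 and 0.05, and the widest differences are among the secreted inhibitors.

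The genes with values most like Rspo3, by root mean square distance over the 4 arrays, were Gstm5, a glutathione transferase gene, at a distance of 0.014, then Hddc3, Kdm5d, Uty and Gadd45g, at up to 0.06. Gadd45g is a growth arrest gene, while Kdm5d and Uty encode histone demethylases and lie on the Y chromosome. Kdm5d was 0.63 and 0.27 in Het, against -0.27 and -0.34 in cKO. Xist, the RNA expressed from the silenced X chromosome of females, was -4.08 and -0.85 in Het, against 0.85 and 1.23 in cKO. Another Y-linked gene, Eif2s3y, which encodes a translation factor subunit, was 1.18 and 0.79 in Het, against -0.87 and -0.79 in cKO. Xist had the largest absolute difference of all genes, at 3.51 ± 1.23, and Eif2s3y was at -1.81 ± 0.16 (SE, n = 2 arrays per group). These genes separate the same 2 groups that are compared for each of the 9 genes, Lgr4 included. The part of the animals' sex in any of those differences was not tested. With these 4 arrays it cannot be told apart from the part of the genotype. For Lgr4 the closest genes were Gtpbp10, a GTPase gene, at a distance of 0.022, then Zfp768, Dynll2, Rnf182 and Wdyhv1, at up to 0.06. Of these, Dynll2 encodes a light chain of the motor protein dynein. Nearness over 4 arrays is a description, since many genes share any one order of 4 values.

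**Figure D4:**
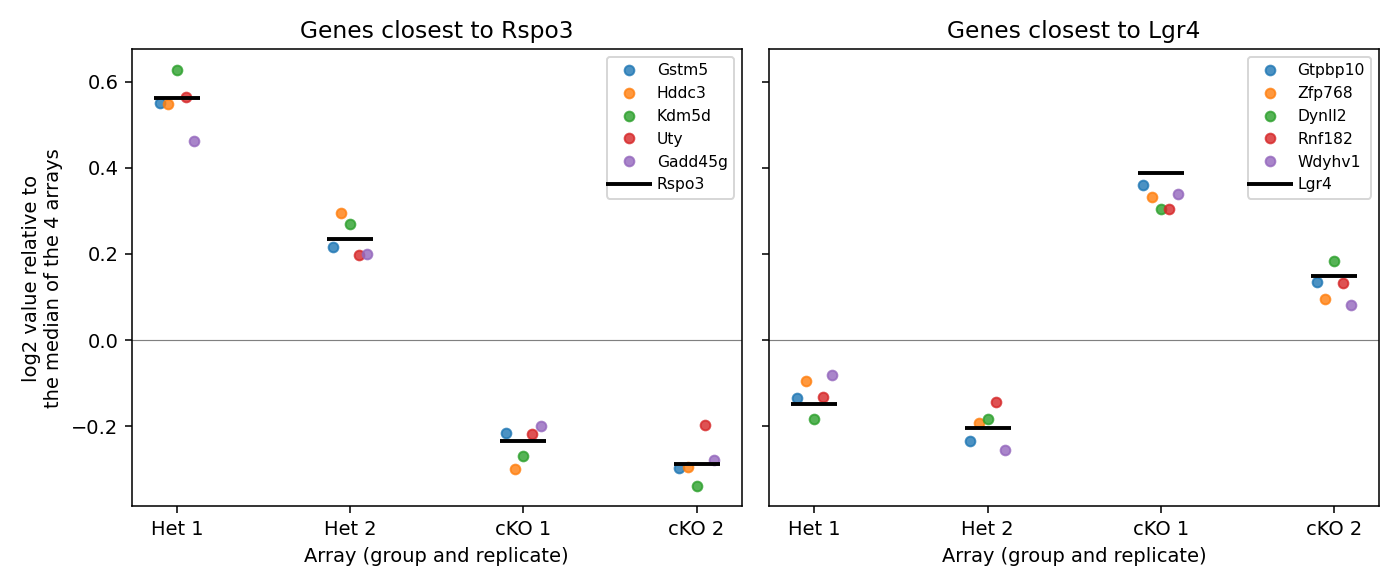
Values in each array, as log2 values set against the median of the 4 arrays, of Rspo3 and Lgr4 (black bars) and of the 5 genes closest to each (points). The points of the left panel follow Rspo3 from 0.56 in Het replicate 1 to -0.29 in cKO replicate 2, and those of the right panel follow Lgr4 from -0.20 in Het replicate 2 to 0.39 in cKO replicate 1.

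Markers of other cells that a skin sort could hold were read in the same way, and no marker gene passed limma's test over all genes. Over all genes 47.7% were lower in cKO, and groups did not overlap in 33.5%. Of 11 dermal fibroblast markers 9 were lower in cKO, with a median difference of -0.25 and groups that did not overlap in 6; their median by array was -0.0036 and 0.06 in Het, against -0.0008 and -0.09 in cKO. Of 15 keratinocyte markers 13 were lower, with a median of -0.13, but the groups overlapped in 11 of them. Of 7 Schwann and glial markers 5 were lower and 2 higher, with a median of -0.12 and groups that did not overlap in 4. The largest differences of this list were Egr2, at -1.35 ± 0.23, and Fabp7, at -0.82 ± 0.08 (SE, n = 2 arrays per group). The median was -0.04 for 9 melanocyte markers, all of which overlapped. It was -0.06 for 8 markers of dermal sheath and smooth muscle, -0.01 for 9 endothelial markers and 0.02 for 8 immune markers. The 13 measured dermal papilla markers had 6 genes lower and 7 higher, with a median of 0.11. Groups did not overlap in 7 of them, 3 lower and 4 higher. This list includes Sox2 itself and Itga9, the gene of the integrin used in the sort. Its differences ran from -1.81 for Sox2 to 1.08 for Ndnf. No level is available for any of these lists, and their part in the differences of the R-spondin and receptor genes was not tested.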

How the data were processed

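Affymetrix Mouse Gene ST arrays were run on 4 samples, grouped by the titles of the labels as Het or cKO with replicates 1 and 2. Per the labels' protocols, RNA was isolated by a microprep kit, amplified over whole transcripts and then labelled with biotin. Per the submitters' processing notes the authors used RMA, and the values are taken here as log2; the log base and software version are not stated, nor is the centring. In this deposited log2 table each of 28853 probe sets had a median of 0 over the 4 arrays, within 5e-07, so no filter on low values could be set. Precision is limited by the number of arrays.

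Of the probe sets, 21789 named 1 gene in the platform annotation, 1621 several and 5443 none; genes were means over probe sets naming them alone. Symbols were checked against a gene table of assembly GRCm38.p6, which changed 0. The comparison used limma 3.58.1 in R 4.3.3 (functions lmFit and eBayes, group as the only term, two-sided, Benjamini-Hochberg over all genes, threshold 0.05; 2 residual and 1.52 prior degrees of freedom). The fit was tested on simulated data. Python 3.11.15 and matplotlib 3.10.9 drew the figures. The genes, gene lists and marker lists were chosen with earlier results of these data known. Named genes were Sox2, the 9 genes, the 3 largest differences with separated groups per WNT list with Axin2, Lef1, Lrp6, Sdc4 and Wls in any case, and the 5 genes closest to the members with the 2 largest differences; the text describes a part of these. Xist, Eif2s3y, Egr2 and Fabp7 fall outside these and were named with earlier results known. Alternatives were arrays centred on their medians, quantile normalisation, a robust prior, an unmoderated statistic, a replicate block, medians of probe sets, single probe sets, probe sets naming several genes, and each array left out in turn.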

Additional observations from a re-analysis of the deposited data

How the results depend on the processing

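Under all 12 alternatives the count of genes passing over all genes was 0, and none of the 9 genes passed, with adjusted p-values (limma) from 0.514 to 1 for Rspo3 and for Lgr4. The count at an unadjusted p under 0.05 ran from 769 without Het replicate 1 to 1647 without cKO replicate 1, and the unmoderated statistic gave 937. Separated groups were seen in 6 of the 9 genes in every fit with 4 arrays, and in 6 to 9 with 1 array left out, where 62 to 71.1% of all genes were separated. With 4 arrays, only median centring and quantile normalisation changed the values of the 9 genes, so the other fits could not change the count of 6. Rspo1, Rspo2, Rspo3, Lgr4, Znrf3 and Rnf43 kept their direction under each alternative. Their groups were separated, so leaving out 1 array could not turn it. Only median centring and quantile normalisation could have done so. Rspo4 turned to -0.064 with quantile normalisation and ran from -0.54 to 0.59 with 1 array left out; Lgr5 ran from -0.076 to 0.048 and Lgr6 from -0.036 to 0.048. The cause was not tested. The replicate numbers are shared between the groups, but the labels do not say that they pair the samples; deviations from the group means of same-numbered arrays correlated at 0.30 across genes, which are not independent. With the number as a block, no gene passed, and the unadjusted p was under 0.05 for 1625 genes, against 1053 without it. The block left each difference as it was and brought Rspo3 and Lgr4 to an adjusted p of 0.514 and Znrf3 to 0.575 (limma).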

Other observations

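The wide gap between the 2 cKO arrays in Rspo4 was shared by other genes, chosen after the values of Rspo4 were seen. The gene closest to it over the 4 arrays was Spred2, an inhibitor gene of growth factor signalling through RAS, at a distance of 0.07, with -0.50 in cKO replicate 1 and 0.46 in cKO replicate 2. Next came Mt2, a metallothionein gene that responds to metals and stress, at -0.54 and 0.56 in the same arrays, followed by Zscan25, Nav2 and Sat1. For Rspo1 the closest genes were Derl1, which encodes a protein of the endoplasmic reticulum, and Slit3, a guidance ligand gene, which stood at 0.37 and 0.05 in Het, against -0.34 and -0.05 in cKO.

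The nearest measured gene on each side of the 9 genes gave 18 neighbours, and groups did not overlap in 5 of them, 1 lower and 4 higher in cKO, against 33.5% of all genes, 15.6% lower and 17.8% higher. None passed limma's test over all genes. Rspo3 lies between Rnf146, a ubiquitin ligase gene that acts on Axin, and Cenpw, a kinetochore protein gene. Rnf146 was at -0.13 ± 0.12 with overlapping groups and Cenpw at -0.53 ± 0.23, where cKO replicate 2 stood at -0.71 and cKO replicate 1 at -0.11. Lgr4 lies between Platr8, at 0.03 ± 0.04, and Ccdc34, at 0.08 ± 0.16. Znrf3 has as a neighbour another WNT gene, Kremen1, which encodes a receptor for Dickkopf inhibitors and was at 0.11 ± 0.14 with overlapping groups (SE, n = 2 arrays per group).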
